A study of Mus musculus with 186 samples.

Results

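The genes of major histocompatibility complex (MHC) class I and class II were followed cell by cell in the epithelium of the adult mouse mammary gland. Of the 27179 genes in the count files, 10 were chosen by name and not by their values. They were the class I genes B2m, H2-K1, H2-D1, Tap1 and Nlrc5, and the class II genes H2-Aa, H2-Ab1, H2-Eb1, Cd74 and Ciita. All 10 were found by Entrez identifier. The cells came from adult FVB/NJ females of 10 weeks, without treatment, and were sorted after removal of Ter119+, CD31+ and CD45+ cells as Adult basal (CD29hi CD24+, 96 cells) and Adult luminal (CD29lo CD24+, 90 cells). CD45 is the surface protein of blood cells, CD31 that of vessel lining and Ter119 that of red cells. The Fluidigm C1, a microfluidic device, held each cell in a site of its own and made full-length cDNA from it. The design names 8 mice but the labels tie no cell to a mouse, so a population is 1 sample here and the populations were not tested against each other. The PCR plates were A and B for basal cells, B and C for luminal cells.

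MHC class I molecules show peptides from inside the cell to CD8+ T cells and are made by nearly all nucleated cells. H2-K1 and H2-D1 encode heavy chains, B2m the light chain beta-2 microglobulin that each of them needs, Tap1 a subunit of the transporter that brings peptides into the endoplasmic reticulum, and Nlrc5 a transactivator of class I genes. MHC class II molecules show peptides taken up from outside to CD4+ T cells and are made chiefly by dendritic cells, macrophages and B cells, although interferon gamma can induce them in epithelium. H2-Aa and H2-Ab1 encode the alpha and beta chain of I-A, H2-Eb1 the beta chain of I-E, Cd74 the invariant chain that guards the peptide groove, and Ciita the transactivator of class II genes.

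A promoter sequence was found for 6 of the 10 genes. Of these, a pair of class I and a pair of class II genes are shown. Most cells held RNA of the class I pair, and few held RNA of the class II pair. The bases shown are the 250 before the RefSeq start in GRCm38.p6, 5′ to 3′ on the strand of the gene. Capitals mark CCAAT, bound by NF-Y, TGACGTCA, a cyclic AMP response element, and GAAANNGAA, the core of an interferon-stimulated response element. Each was searched on both strands (CCAAT reads ATTGG on the other strand). The windows are chr2:122147437-122147686 on the plus strand for B2m, chr17:35262844-35263093 on the plus strand for H2-D1, chr17:34287824-34288073 on the minus strand for H2-Aa and chr17:34305617-34305866 on the plus strand for H2-Eb1.
B2m: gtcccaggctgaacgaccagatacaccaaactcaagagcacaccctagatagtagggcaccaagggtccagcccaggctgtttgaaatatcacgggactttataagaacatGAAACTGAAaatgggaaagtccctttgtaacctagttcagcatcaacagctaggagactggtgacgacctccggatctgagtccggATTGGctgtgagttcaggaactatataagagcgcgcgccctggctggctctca
H2-D1: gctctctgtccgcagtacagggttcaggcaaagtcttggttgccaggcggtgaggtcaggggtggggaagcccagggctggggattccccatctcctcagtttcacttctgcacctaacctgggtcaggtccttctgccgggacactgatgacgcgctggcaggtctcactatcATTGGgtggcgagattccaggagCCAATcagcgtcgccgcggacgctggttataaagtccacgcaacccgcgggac
H2-Aa: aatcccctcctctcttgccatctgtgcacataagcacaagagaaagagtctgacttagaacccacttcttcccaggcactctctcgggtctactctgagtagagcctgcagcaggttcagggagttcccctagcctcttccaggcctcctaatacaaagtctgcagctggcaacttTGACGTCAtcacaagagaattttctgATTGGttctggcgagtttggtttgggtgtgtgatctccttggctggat
H2-Eb1: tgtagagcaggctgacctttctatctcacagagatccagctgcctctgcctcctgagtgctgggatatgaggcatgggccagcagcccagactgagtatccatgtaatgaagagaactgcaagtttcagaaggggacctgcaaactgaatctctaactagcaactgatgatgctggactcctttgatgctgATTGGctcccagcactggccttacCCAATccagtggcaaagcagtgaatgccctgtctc

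CCAAT was found in all 4 windows, and in 34.5% of 27025 promoters of the same length. It began at -53 in B2m, at -76 and -53 in H2-D1, at -48 in H2-Aa and at -59 and -35 in H2-Eb1, counted from the annotated start. TGACGTCA was found in H2-Aa, at -74, and in 1.62% of all promoters. GAAANNGAA was found in B2m, at -139, and in 7.16% of all promoters. Only this exact string was searched, so a window without it may still hold a variant of the element. TTCNNNGAA, the core of a STAT binding element, was in none of the 4 windows and in 7.18% of all promoters. These matches describe letters and say nothing about binding in these cells.

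Reads per cell and genes per cell decide what can be seen. After mitochondrial and ribosomal protein genes were removed, 72 of 96 basal cells and 76 of 90 luminal cells passed the thresholds of the study. They held 69933 to 1968860 reads in basal and 105636 to 3226961 reads in luminal cells. The median number of genes at a common depth of 50000 reads was 2885.5 on basal plate A and 1568.5 on basal plate B, against 3181 and 3436 on luminal plates B and C. The sort labels were checked against markers. All 8 basal markers (Krt14, Acta2 and others) were higher in basal cells and all 8 luminal markers (Krt8, Krt18 and others) in luminal cells. Yet 9 basal and 14 luminal cells stood apart, in that they held at least 4 immune, endothelial or fibroblast markers at 1 CPM (reads scaled to the total of the library) or more, or had a lower sum of their own lineage's markers than of another list. Of these, 6 basal and 6 luminal cells carried at least 4 endothelial markers, and 1 luminal cell at least 4 immune markers. That cell, luminal cell 86, had 322700 reads and 15.5 CPM of immune markers. A single read in it exceeds 1 CPM, so the rule depends on depth. Ptprc, which encodes CD45, had 5 reads in all basal and 6 in all luminal cells together. Values without the cells that stand apart are given, over all plates, where a result rests on them.

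**Figure D1:**
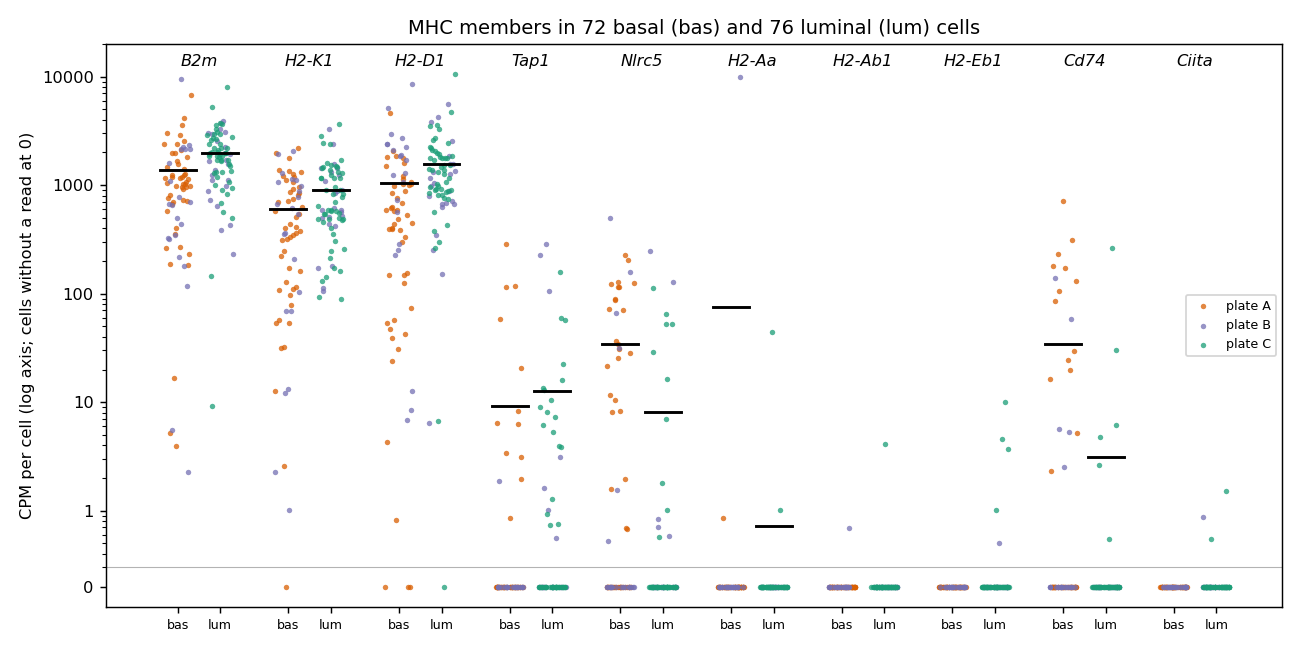
Each point is a cell, with its level in CPM on a log axis and cells without a read at 0. Basal and luminal cells stand side by side for each gene, colours mark the plates and black lines the CPM of the summed population (not drawn under 0.3 CPM). B2m, H2-K1 and H2-D1 have points in nearly every cell, whereas most cells lie at 0 for the other 7 genes.

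Class I chains were found in nearly every cell of both populations. B2m (Entrez 12010, chromosome 2, 122147687 to 122153082) had a read in all 72 basal and all 76 luminal cells. Its level per cell ran from 2.28 over a median of 1004 to 9531 CPM in basal cells and from 9.21 over 1855 to 8042 CPM in luminal cells. The ranges overlapped along most of their length. Summed over cells, B2m had 1392 CPM in basal cells (1384 to 1400, exact 95% Poisson interval) against 1975 CPM in luminal cells (1967 to 1984).

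H2-K1 (Entrez 14972, chromosome 17, 33996012 to 34000619) ran from 0 over a median of 426 to 2217 CPM in basal cells and from 89.9 over 627 to 3684 CPM in luminal cells. A single basal cell had no read of it, and no luminal cell lacked it. Its summed level was 609 CPM (603 to 614) in basal and 897 CPM (891 to 902) in luminal cells. H2-D1 (Entrez 14964, chromosome 17, 35263094 to 35267497) ran from 0 over 592 to 8645 CPM in basal cells and from 0 over 1272 to 10487 CPM in luminal cells. It lacked a read in 3 basal cells and 1 luminal cell, and summed to 1042 CPM (1035 to 1049) and 1575 CPM (1568 to 1583).

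After thinning to 50000 reads, B2m had a read in 95.8% of basal and 98.7% of luminal cells, H2-K1 in 94.4% and 100%, and H2-D1 in 88.9% and 96.1%.

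Over all plates these genes were somewhat higher in the luminal population. The log2 ratio of luminal over basal, with 1 CPM added to each side, was 0.51 for B2m, 0.56 for H2-K1 and 0.60 for H2-D1. The median over all 14773 genes that passed the low-value filter (1 CPM in at least 3 cells) was 0.18. On plate B, which held both populations, the ratios were 0.43, 0.67 and -0.07, and there the median over all genes was 0.48. On plate B the ratio of B2m was 1.05 without basal cell 72, and that of H2-D1 0.11 without basal cell 70 and -0.26 without luminal cell 8. H2-D1 thus had little or no luminal excess on plate B, where the 22 basal cells had 1635 CPM, against 746 CPM in the 50 basal cells of plate A. The median H2-D1 level per basal cell was 467 CPM on plate A and 1497 CPM on plate B. All basal cells that stand apart except cells 13 and 56 lay on plate B, so the basal values of plate B include them. Plate B values without them were not computed. Over both plates, basal cells had 1042 CPM of H2-D1 with them and 877 CPM without them. Over all plates, without the cells that stand apart, the ratios of B2m, H2-K1 and H2-D1 were 0.72, 0.52 and 0.82.

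Per length, the order of the class I chains was the same in both populations. B2m came first with 1622 RPKM (CPM per kilobase of transcript) in basal and 2302 RPKM in luminal cells. H2-D1 followed with 600.1 and 907 RPKM, and H2-K1 with 370 and 545 RPKM. Counting intervals of neighbours, which take reads as independent, did not overlap on the CPM scale behind these values, while the ranges over single cells did. Of windows of 50 bases in H2-D1 transcripts, 13.9% also occur in transcripts of other genes, most often in H2-Q1 (6.68% of windows), and of those in H2-K1 6.87%, most of them in H2-D1, so some reads of the heavy chains could belong to a relative. No window of B2m is shared.

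Some cells had very little class I RNA. Of 72 basal cells, 10 had less than 10 CPM of at least 1 of the genes B2m, H2-K1 and H2-D1, and of 76 luminal cells 3 did. Basal cell 66 was below 10 CPM for all 3 genes, at 2.28, 2.28 and 6.84 CPM, with 876910 reads and all 8 basal markers. Basal cell 69, the most deeply sequenced basal cell, had 5.59 CPM of B2m, 1.02 CPM of H2-K1 and 12.7 CPM of H2-D1. Cells of this kind were also poor in genes: the 10 basal cells had a median of 3217 detected genes against 4565 in the other 62. The part that detection played in the low values was not tested. Luminal cell 74 combined 1335 CPM of H2-K1 with 9.21 CPM of B2m and 6.70 CPM of H2-D1.

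**Figure D2:**
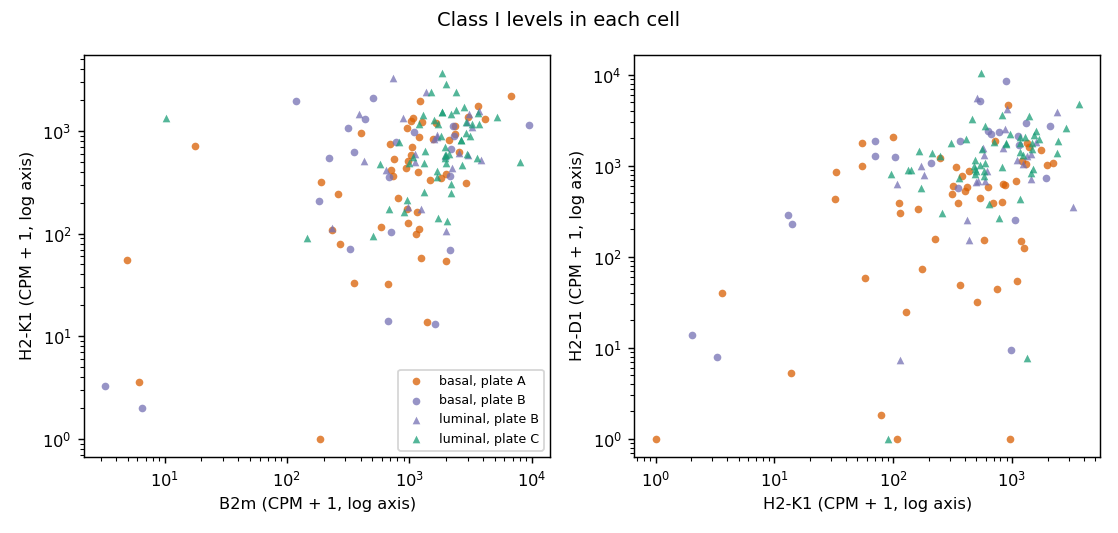
Each symbol is a cell, circles for basal and triangles for luminal cells, coloured by plate, on log axes of CPM + 1. Most cells gather at the upper right in both panels (B2m against H2-K1, H2-K1 against H2-D1), and the cells scattered to the lower left are mostly basal.

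Within a population the 3 chains varied together to a limited degree. In the log2 values of cells thinned to a common depth, Pearson's r over 72 basal cells was 0.46 for B2m and H2-K1, 0.31 for B2m and H2-D1 and 0.42 for H2-K1 and H2-D1. Over 76 luminal cells it was 0.21, 0.71 and 0.37. Spearman's rho was 0.33, 0.22 and 0.34 in basal and 0.33, 0.33 and 0.48 in luminal cells, so the luminal 0.71 was not matched by rank. The cells of a population share plates and a common set of mice, and the class I score, the mean of those log2 values over the 5 class I genes, rose with the number of genes detected per cell (r of 0.46 in basal and 0.32 in luminal cells).

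Among the 5683 other genes found in at least 20% of luminal cells, the pattern most like the class I score was that of Ubb, which encodes polyubiquitin, with r of 0.61 and rho of 0.20 over 76 cells. Gm5148 (0.57), Eif1, a translation initiation factor (0.56), Ubb-ps (0.55) and Gm2225 (0.55) followed. Their rho was lower, at 0.15, 0.29, 0.17 and 0.13. Sequence shared between these genes was not examined. In basal cells, where 4368 genes were compared, Ptp4a2, a phosphatase gene (0.51), the cyclin gene Ccnd1 (0.50), the proteasome gene Psmb6 (0.49) and Perp (0.48), a desmosomal gene, were among the 5 nearest. The 99th percentile of r over all genes compared was 0.41 in either population. In luminal cells the markers of luminal progenitors and mature luminal cells lay below that, from -0.07 for Elf5 to 0.20 for Pgr, and so did Psmb8 (0.21), Psmb9 (0.26) and Irf1 (0.03). In basal cells Tapbp, which encodes tapasin, lay above it with 0.45, against 0.19 in luminal cells.

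Tap1 and Nlrc5 were found in a minority of cells. At 50000 reads per cell, Tap1 (Entrez 21354, chromosome 17, 34187556 to 34197225) had a read in 5 of 72 basal cells (6.94%, exact Clopper-Pearson interval 2.29 to 15.5%) and 10 of 76 luminal cells (13.2%, 6.49 to 22.9%). At full depth it was found in 13 basal and 26 luminal cells, with at most 285 and 290 CPM in a cell. The summed level was 9.18 CPM in basal against 12.6 CPM in luminal cells, and the log2 ratio 0.42. Basal cell 53 gave 42.5% of the basal reads, and without it the ratio was 1.10. Without luminal cell 15 it was 0.07. On plate B the basal cells held 2 reads of Tap1 in all, so its ratio there, 4.54, had little below it.

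Nlrc5 (Entrez 434341, chromosome 8, 94434335 to 94527272) was higher in basal cells. At 50000 reads it had a read in 24 of 72 basal cells (33.3%, 22.7 to 45.4%) and 9 of 76 luminal cells (11.8%, 5.56 to 21.3%). The summed level was 34.1 CPM (32.8 to 35.4) in basal and 8.19 CPM (7.67 to 8.73) in luminal cells, a log2 ratio of -1.93. The highest basal cell, number 70, reached 501 CPM and the highest luminal cell, number 5, 246 CPM, so the ranges overlapped.

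Both basal plates had more Nlrc5 than either luminal plate, but on plate B the level of each population rested largely on a single cell. Basal plates A and B had 32.6 and 37.0 CPM, and luminal plates B and C 12.0 and 6.38 CPM. On plate B alone the log2 ratio was -1.55. Of the Nlrc5 reads on basal plate B, 67.8% came from basal cell 70, and without that cell basal plate B had 12.6 CPM and the plate B ratio was -0.06. On luminal plate B, 63.3% came from luminal cell 5. Without that cell luminal plate B had 4.54 CPM and the plate B ratio was -2.78. Over all plates the ratio was -1.56 without basal cell 70, -2.37 without luminal cell 5 and -2.21 without the cells that stand apart.

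Cells with and without Nlrc5 RNA had class I levels of the same order. In the 31 basal cells with a read of Nlrc5 at full depth, the median was 1169 CPM for B2m, 414 CPM for H2-K1 and 584 CPM for H2-D1. In the 41 basal cells without one it was 754, 438 and 855 CPM. Among luminal cells the 15 with a read had medians of 2183, 874 and 1777 CPM, and the 61 without one 1828, 596 and 1051 CPM. Basal cells with a read had more genes detected (median 5158 against 3861), and the part of detection in these values was not tested.

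**Figure D3:**
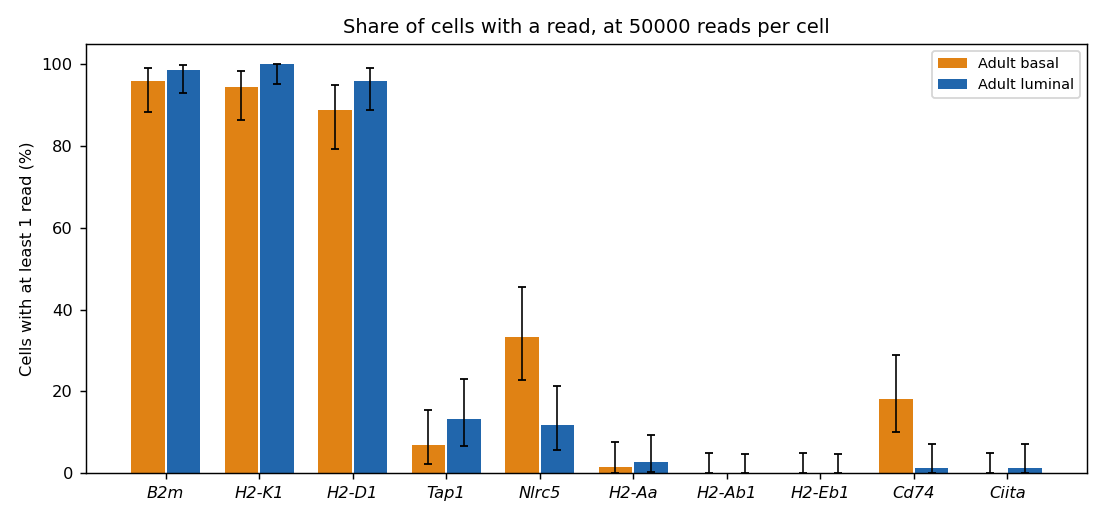
Bars give the percentage of cells with at least 1 read of each gene after thinning to 50000 reads, in Adult basal and Adult luminal cells, and error bars the exact 95% Clopper-Pearson interval. B2m, H2-K1 and H2-D1 stand above 85% in both populations, Nlrc5 and Cd74 are taller in basal cells, and H2-Aa, H2-Ab1, H2-Eb1 and Ciita are at or near 0.

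Class II chains were almost absent, apart from Cd74. H2-Aa (Entrez 14960, chromosome 17, 34282744 to 34287823) had 6364 reads in basal cells, of which 6363 lay in basal cell 82 and 1 in basal cell 50. Basal cell 82, on plate B, had 9909 CPM of H2-Aa, no read of H2-Ab1, H2-Eb1, Cd74 or Ciita, 10236 CPM of endothelial markers and 34.3 CPM of basal markers. In luminal cells H2-Aa had 82 reads, 81 in luminal cell 39 and 1 in luminal cell 67. Luminal cell 39 carried 6752 CPM of fibroblast markers beside 7422 CPM of luminal markers.

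The H2-Aa ratio therefore reflected a single cell. The summed levels were 75.7 CPM in basal against 0.72 CPM in luminal cells, with a log2 ratio of -5.48. Without basal cell 82 the ratio was 0.76. Without the cells that stand apart, 1 read was left in each population.

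H2-Ab1 (Entrez 14961, chromosome 17, 34263227 to 34269418) had 1 basal read, in basal cell 90, and 7 luminal reads, all in luminal cell 25. The ratio of the summed levels was 5.16 with a counting interval of 0.66 to 233. Basal cell 90 had 1.39 CPM of basal against 5559 CPM of luminal markers, and luminal cell 25 had 1970 CPM of endothelial markers. H2-Eb1 (Entrez 14969, chromosome 17, 34305867 to 34316674) had no basal read and 22 luminal reads in 5 cells, namely 8 in luminal cell 27, 7 in cell 26, 5 in cell 51 and 1 each in cells 2 and 67. Set against 3 reads over the basal population, its 0.19 CPM in luminal cells was 5.41-fold higher. The counting interval of the ratio began at 4.04. It takes reads as independent, although the 22 reads lay in 5 cells and the libraries carry no molecular identifiers. Without luminal cell 27, which had 1976 CPM of endothelial markers, the value against 3 reads was 3.47-fold. Of the luminal reads 21 lay on plate C, which held no basal cell, and 1 on plate B, where basal cells had 0. Plate and population therefore cannot be told apart for H2-Eb1. None of these cells kept a read of H2-Eb1 or H2-Ab1 after thinning.

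Ciita (Entrez 12265, chromosome 16, 10480014 to 10531064) had no basal read and 3 luminal reads, in luminal cells 5, 39 and 58, so no fold is given. H2-Ea, the alpha chain partner of H2-Eb1, had 1 read in each population. Immune cell markers, a list not limited to the cells that make class II, were scarce. Of 20 immune markers 8 had no read in basal and 4 no read in luminal cells. The summed level of the list per cell ran from 0 to 91.1 CPM in basal and from 0 to 472 CPM in luminal cells, with medians of 0 and 0.47 CPM. The most abundant of the list were Cd68, a lysosomal gene (1.76 and 17.3 CPM), Csf1r (1.38 and 0.29 CPM), Cd3e (1.16 and 0.27 CPM) and Ms4a1 (0.01 and 0.98 CPM).

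Cd74 (Entrez 16149, chromosome 18, 60803849 to 60812652) was the exception among class II genes. It had a read in 19 of 72 basal cells (26.4%, 16.7 to 38.1%) and 6 of 76 luminal cells (7.89%, 2.95 to 16.4%). At 50000 reads per cell it was found in 13 basal cells (18.1%, 9.98 to 28.9%) and 1 luminal cell (1.32%, 0.03 to 7.11%). For scale, Krt14, a keratin gene of the basal layer, had a read in 15.8% of luminal cells at that depth. In the 19 basal cells Cd74 ran from 2.34 over a median of 58.5 to 707 CPM, the highest in basal cell 40. In the 6 luminal cells it ran from 0.55 over 5.47 to 261 CPM, the highest in luminal cell 60, which held 311 of the 359 luminal reads.

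Summed over cells Cd74 had 34.2 CPM (33.0 to 35.5) in basal and 3.15 CPM (2.83 to 3.49) in luminal cells, a log2 ratio of -3.09. Plate A had the higher basal level, 47.5 CPM against 7.68 CPM on plate B. Luminal cells had no read on plate B and 4.65 CPM on plate C. On plate B alone the ratio was -3.12. Basal cell 61 held 65.1% of the basal reads there, and without it basal plate B had 2.78 CPM and the ratio was -1.92. Over all plates, without basal cell 40 it was -2.58, and without luminal cell 60 it was -4.63. The cells that stand apart held no basal Cd74 read, and without them the ratio was -3.08.

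The basal cells with Cd74 bore basal markers and no other class II gene. Each of the 19 had at least 5 of 8 basal markers at 1 CPM or more, with a sum of 4139 CPM or more. None had a read of H2-Aa, H2-Ab1, H2-Eb1, Ciita or Ptprc, and none had more than 1 of 20 immune or of 14 endothelial markers at 1 CPM. They lay on both plates, 14 among the 50 of plate A and 5 among the 22 of plate B. Their class I medians, 963 CPM of B2m, 538 CPM of H2-K1 and 584 CPM of H2-D1, were close to the 1046, 400.2 and 595 CPM of the 53 basal cells without Cd74, with ranges that overlapped. Genes per cell had medians of 4443 and 3973.

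Whether class II genes met in the same cells was asked over H2-Aa, H2-Ab1, H2-Eb1 and Cd74. At 50000 reads per cell, 0 of 72 basal cells held 2 or more of them, which allows a share of up to 4.17%, and 0 of 76 luminal cells did, which allows up to 3.95%. None held all 4, which was fixed in advance, since H2-Ab1 and H2-Eb1 had no read in any cell at that depth. H2-Aa had a read in 1 basal and 2 luminal cells there. The product of its share with that of Cd74 gives 0.18 basal and 0.03 luminal cells. A count of 0 at that depth therefore cannot show whether the genes meet less often than their shares give. With every read used, 22 basal cells had exactly 1 of the 4 genes and none had more, while 10 luminal cells had exactly 1 and 2 had exactly 2 (2.63%, 0.32 to 9.18%).

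The 2 luminal cells held their genes at low counts. Luminal cell 39 had 81 reads of H2-Aa and 1 of Cd74, beside 1 of Ciita. Luminal cell 67 had 1 read of H2-Aa and 1 of H2-Eb1. Basal Cd74 met Nlrc5 in 10 cells, where the product of their shares gives 8.18, and it met Ifi30, which encodes a lysosomal thiol reductase, in 11, where the product gives 7.13. These counts rest on cells of unequal depth. At 50000 reads they were 6 against 4.33 and 4 against 3.25.

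**Figure D4:**
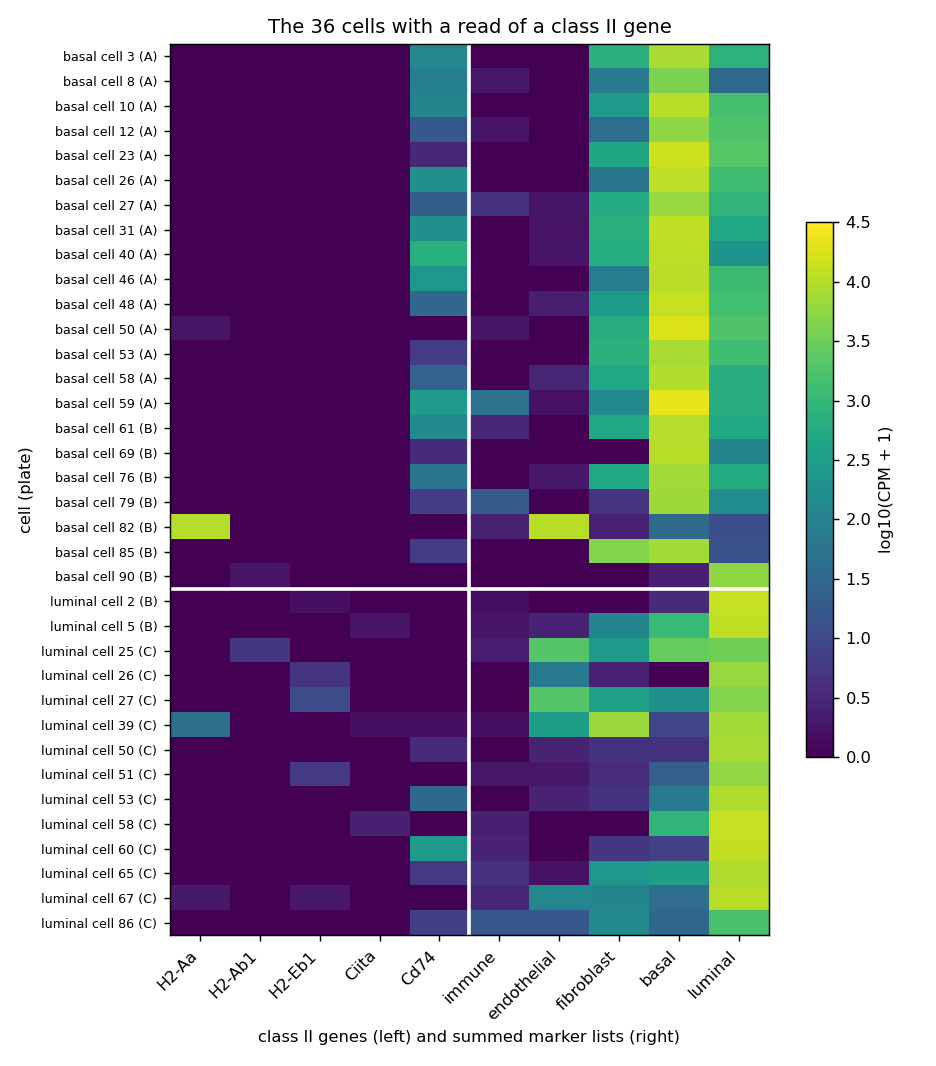
Rows are the 36 cells with a read of a class II gene, with the plate in parentheses, and columns the 5 class II genes and the summed levels of 5 marker lists, coloured by log10(CPM + 1). Cd74 fills a column in basal cells that also have basal markers, whereas the other class II reads are scattered over single cells, the brightest being H2-Aa in basal cell 82 with its endothelial markers.

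Of the 10 genes, 8 passed the low-value filter and H2-Ab1 and Ciita did not. None of the 8 had a log2 ratio of 1 or more, where 28.4% of all genes tested did. A ratio of -1 or less was found for 3 (Nlrc5, H2-Aa and Cd74), where 18.3% of all genes tested had one. The median ratio was 0.51 over the 5 class I genes. Over the 5 class II genes it was 0.04, a value set by genes with few reads. Per length, the genes below the class I chains ranked differently in the populations. In basal cells H2-Aa had 70.8 RPKM, all but 1 read from basal cell 82, and Cd74 24.2, Nlrc5 4.91 and Tap1 3.11 RPKM followed. In luminal cells Tap1 led with 4.26 RPKM, then Cd74 with 2.22, Nlrc5 with 1.18, H2-Aa with 0.67, H2-Eb1 with 0.12 and H2-Ab1 with 0.05 RPKM. Luminal cell 60 held 86.6% of the luminal Cd74 reads and luminal cell 39 98.8% of those of H2-Aa. Without these cells Cd74 had 0.30 RPKM, below Nlrc5, and H2-Aa 0.0083 RPKM. With 1 sample per population, no spread between samples stands behind these orders.

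Other genes of antigen presentation were taken from lists of known function. Of 14 genes for class I heavy and light chains, 7 had a log2 ratio of 1 or more, where 28.4% of all genes tested did. None had a ratio of -1 or less, where 18.3% of all genes tested did. The median was 1.06 against 0.18 over all genes. Non-classical genes had the highest ratios. H2-T10, the most abundant of them in luminal cells, had 19.6 CPM in basal against 71.7 CPM in luminal cells (log2 ratio 1.82, and 3.36 on plate B), H2-Q4 had 7.66 and 34.3 CPM (2.03 and 3.01), and H2-Q7 had 2.34 and 21.9 CPM (2.78 and 3.87). They kept that direction without the highest cell of either population and without the cells that stand apart. H2-T10 shares 42.9% of its windows of 50 bases with other genes, H2-Q4 39.2% and H2-Q7 34.9%, so their reads cannot be assigned with certainty. H2-T24 and H2-M3 had ratios of -0.91 and -0.58, which were 0.83 and 2.90 without the highest basal cell. On plate B their ratios were -5.15 and -2.11, and without the cells that stand apart -2.36 and -0.80.

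Genes of class I peptide supply numbered 14, of which 4 had a ratio of 1 or more and 2 of -1 or less, with a median of 0.38. Among all genes tested 28.4% and 18.3% had such ratios, so the counts were near the background. All 3 immunoproteasome subunits were higher in luminal cells. Psmb8 had 76.9 and 326 CPM (log2 ratio 2.07, and 2.34 on plate B) and at 50000 reads was found in 22 of 72 basal and 57 of 76 luminal cells. Psmb9 had 19.7 and 49.5 CPM (1.29 and 2.45), found in 6 and 32 cells. Psmb10 had 15.6 and 83.6 CPM (2.35 and 5.81), found in 13 and 24 cells. Erap1, the aminopeptidase that trims peptides, had 18.1 and 90.5 CPM (2.26), and 1.63 without the luminal cell that held 37.4% of its reads. Tapbp, which encodes the loading factor tapasin, had 190.2 and 290.2 CPM (0.61), and Psme1, a proteasome activator subunit, 115.6 and 147 CPM (0.34, and -0.36 on plate B). Tap2, the partner of Tap1, had 21.3 and 13.7 CPM (-0.60), but 97.7% of its basal reads lay in a single cell, and without it the ratio was 3.29. Without the highest luminal cell the Tap2 ratio was -1.24, and on plate B it was -2.39. Of the general chaperones of the endoplasmic reticulum Canx had 5517 and 5561 CPM (0.01, and -0.69 on plate B), Pdia3 570.3 and 463 CPM (-0.30) and Calr 370.2 and 225 CPM (-0.71, and -0.14 on plate B). Lower in luminal cells were Nlrc5 and Tapbpl, a peptide editor (26.2 and 3.93 CPM, -2.47), of whose basal reads 55.8% lay in a single cell.

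Some genes of class II peptide loading were measured although the chains were nearly absent. Of 14 genes of the class II list 8 passed the filter, with a median ratio of 0.13 over those that passed. Of the 8, 1 had a ratio of 1 or more and 3 of -1 or less, where 28.4% and 18.3% of all genes tested did. H2-DMb1, a chain of the peptide exchange factor H2-DM, had 29.0 CPM in basal against 43.0 CPM in luminal cells, and at 50000 reads a read in 5 of 72 and 20 of 76 cells. Its relative H2-DMb2 had 12.0 and 15.8 CPM, in 5 and 14 cells. A single luminal cell held 43.5% of the luminal reads of H2-DMb1 and a single one 45.2% of those of H2-DMb2. Without it the log2 ratio turned from 0.55 to -0.22 for H2-DMb1 and from 0.37 to -0.41 for H2-DMb2. Without the highest basal cell the ratios were 1.06 and 0.79, on plate B 1.76 and 1.49, and without the cells that stand apart 0.97 and 0.80. H2-DMb1 and H2-DMb2 met in 12 luminal cells, where the product of their shares gives 3.68. But 27.2% of the windows of H2-DMb1 occur in H2-DMb2 and their reads may be shared. H2-DMa, the partner chain, had 8.29 and 21.8 CPM (log2 ratio 1.30), in 3 and 6 cells. Without the highest luminal cell its ratio was 0.89. Ifi30 had 23.7 and 23.9 CPM over all plates, with a log2 ratio of 1.00 on plate B.

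Regulators of class II other than Ciita were present. Of 8, 7 passed the filter, and their median ratio was -0.25. A ratio of 1 or more was found for 1 (Rfxap, 2.10, with 70.0% of its luminal reads in a single cell). A ratio of -1 or less was found for 1 (Nfya, -1.04). The shares over all genes tested were 28.4% and 18.3%. The subunits of NF-Y, Nfyb (107 and 69.1 CPM) and Nfyc (12.8 and 26.3 CPM), and Creb1 (66.9 and 79.4 CPM) were found in both populations. Of the RFX genes Rfx5 had 4.16 and 2.35 CPM and Rfxank 21.6 and 18.0 CPM. A single cell gave 91.2% of the basal Rfxank reads, and without it the log2 ratio went from -0.25 to 2.70.

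Costimulatory genes were scarce. Of 6, 2 passed the filter. Cd274, which encodes PD-L1, had 0.14 CPM in basal against 13.0 CPM in luminal cells (log2 ratio 3.62), but on plate B its ratio was 0.04. Its luminal reads lay in 10 of 76 cells, 36.6% of them in a single cell. Pdcd1lg2 had 610 luminal reads, 99.7% of them in a single cell. Icosl had 4.04 and 2.57 CPM, Cd40 0 and 0.78 CPM, and Cd80 and Cd86 at most 0.17 CPM.

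Interferon genes gave no common direction. Of 27, all passed the filter, 7 with a ratio of 1 or more and 5 of -1 or less, with a median of -0.14. Over all genes tested the shares were 28.4% and 18.3%, so the counts were near the background. Jak1 had 646 and 428 CPM (log2 ratio -0.59), Irf1 457 and 248 CPM (-0.88) and Iigp1 192 and 426 CPM (1.14). On plate B the ratio was -0.10 for Iigp1 and 0.28 for Irf1, so neither kept its direction there. Without the cells that stand apart the ratio was 3.76 for Iigp1 and -0.93 for Irf1. The receptor genes Ifngr1 (40.0 and 98.0 CPM, 1.27) and Ifngr2 (18.0 and 52.3 CPM, 1.48) were higher in luminal cells, with 0.94 and 1.14 on plate B.

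**Figure D5:**
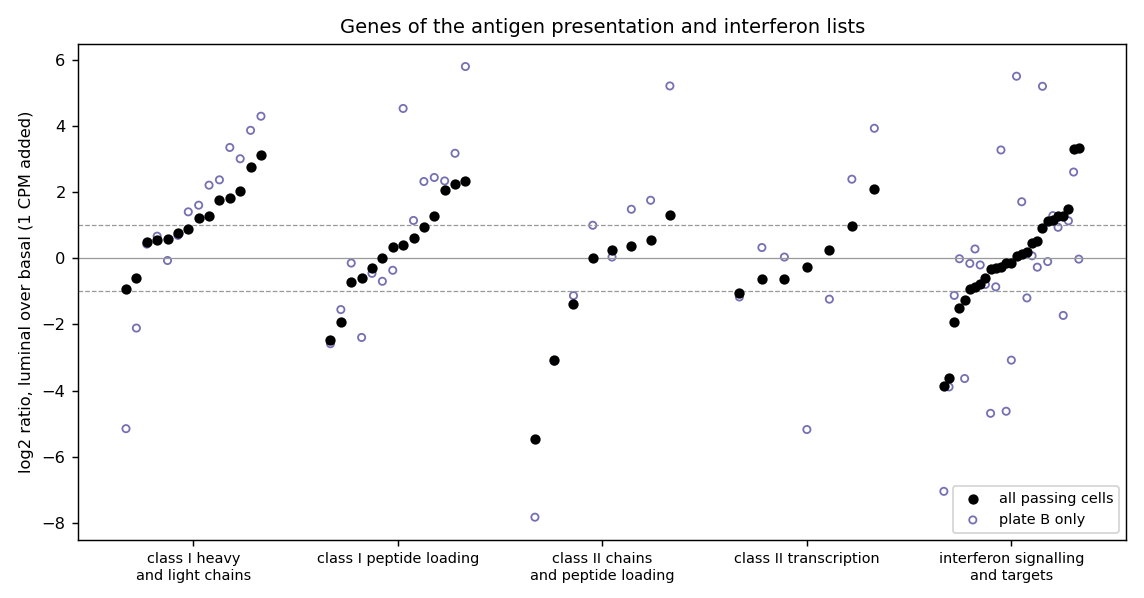
Points are genes of the named lists that passed the low-value filter, ordered within a list by the log2 ratio of luminal over basal (1 CPM added), with filled points for all passing cells and open points for plate B alone. Dashed lines mark a ratio of 1 and of -1. Most genes for class I heavy and light chains lie above 0, while the interferon list scatters to both sides and plate B values lie far from the pooled ones for many genes.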

How the data were processed

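RNA was measured in 186 single cells, 96 labelled Adult basal and 90 Adult luminal. The authors aligned reads to mm10 with Subread and assigned them to genes with featureCounts, using the RefSeq gene models inside Rsubread. The deposited values are raw counts, a file for each cell. Whether counting used strand or reads of several genes is not given in the sources used here. The reference is C57BL/6, and FVB/NJ carries another H2 haplotype, whose effect on the counts was not tested. A table of the whole series with the same counts was not used.

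Of 27179 identifiers, 25275 matched a symbol in the annotation of GRCm38.p6, the assembly of mm10. The 1904 others held 1.94% of counts and were left out, as were 15 mitochondrial and 124 ribosomal protein genes. Cells passed with at least 50000 reads and 1000 genes (basal) or 100000 reads and 1500 genes (luminal). Genes with 1 CPM in 3 cells were kept for counts of genes (14773). Ratios are log2 of luminal over basal CPM of the summed counts, 1 CPM added to each. The RPKM used gene lengths of the files. For shares, cells were thinned to 50000 reads without replacement, a random stream per cell. Sums have exact Poisson and shares exact Clopper-Pearson intervals at 95%, for a share of 0 the limit of 3 counts is printed, and all cover counting error only, since the libraries carry no molecular identifiers. Doublets were not called, as the study inspected capture sites by microscope. Within a population the 2 most alike cells had a chi-square per gene of 20.0 (basal) and 40.8 (luminal), so no library appeared more than once. Promoters came from RefSeq and matched 6 of 10 members, and shared windows of 50 bases from GENCODE M21 transcripts.

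Members, lists and markers were chosen with earlier results of these data known. Named were the members, the 4 most abundant genes of each list with Ptprc, H2-Ea and Rfx5, and the 5 genes most like a class score, except items that are not reported here. Of the marker lists only those that touch a result are named, and further list genes were chosen after their values were seen. The symbol March1 was matched through its synonym Marchf1, and H2-L was not matched. The ratio and correlation steps were tested on simulated data. Python 3.11.15, numpy 2.4.6, scipy 1.17.1, pandas 2.3.3 and, for TMM factors, edgeR 4.0.16 in R 4.3.3 were used. Alternatives covered scaling, added CPM, filters, plates, depth, detection threshold, random seed and single cells.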

Additional observations from a re-analysis of the deposited data

Results flagged for a closer look

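Wells below the thresholds, which enter no comparison, held reads of class I chains above what a count of 0 allows. In the 24 basal wells, with 265874 reads in all, B2m had 433 CPM, H2-K1 67.7 CPM and H2-D1 154 CPM, and the limit for a gene without a read was 11.3 CPM. In the 14 luminal wells, with 412543 reads, B2m had 718 CPM, H2-K1 55.8 CPM and H2-D1 75.1 CPM, with a limit of 7.27 CPM. All 24 and all 14 wells had a read of B2m. The source of these reads was not tested. No read of Cd74, H2-Ab1, H2-Eb1 or Ciita was found in them, and H2-Aa had 1 read.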

How the results depend on the processing

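The class I median log2 ratio, 0.51, was 0.28 under TMM scaling, 0.25 under median-of-ratios scaling, 0.43 on plate B alone, 0.47 when ribosomal protein and mitochondrial genes stayed in, and 0.58 as a mean of CPM per cell. Without the cell that held the most reads of a class I gene it ran from 0.46 to 0.60. TMM factors moved the median of all genes by -0.15 and median-of-ratios factors by -0.17. The class II median, 0.04, was 0.34 with 0.1 CPM added and -3.09 over the 3 members that passed the filter, and from -0.02 to 0.07 without a top cell. It changed sign in 3 of 18 settings. The H2-Aa ratio turned from -5.48 to 0.76 without basal cell 82 and was -6.25 without luminal cell 39, and H2-D1 fell to -0.07 on plate B. B2m, H2-K1 and Nlrc5 kept their sign in each of 13 settings and Cd74 in each of 12, with ranges of 0.25 to 1.05, 0.30 to 0.81, -2.78 to -0.06 and -4.63 to -1.75. The share of luminal cells with 2 or more class II genes was 2.63% without thinning, and 0 in the other settings tried. The values without the cells that stand apart, and those of plate B without its highest cell, were added after the data were seen. No paired analysis was possible because the cell numbers are running numbers that pair no cells, also on plate B, and no result comes from a test. With 1 sample per population, no difference has a replicate check. At 50000 reads per cell a single read stands for 20 CPM, so lower levels are often missed.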

Other observations

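The class II score, over the 4 class II genes at 50000 reads per cell, was above 0 in 3 luminal cells, so the genes nearest to it there, Smarcd2 (r of 0.45), Sh3bp4 (0.41), Tbl3 (0.41), Lta4h (0.40) and Vps53 (0.39), describe 3 cells. In basal cells it was above 0 in 14 cells, and Zfp827 (0.37), Psmd8 (0.35), Utrn (0.34) and Mitd1 (0.34) were among the 5 nearest genes.

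Genes listed as endothelial or fibroblast markers were unevenly spread. Among endothelial markers Vwf, which encodes von Willebrand factor, had 96.1 CPM in basal against 35.3 CPM in luminal cells, Emcn 54.5 and 15.4 CPM, Flt1 26.4 and 9.55 CPM and Plvap 22.2 and 4.17 CPM. A single cell held 74.0% of the basal Vwf reads. The log2 ratio of Vwf turned from -1.42 to 0.47 without it and to 4.72 without the cells that stand apart, and Vwf had a read in 39 luminal cells. Without the cells that stand apart the ratio was 0.01 for Emcn, 0.14 for Flt1 and 1.14 for Plvap, against -1.76, -1.38 and -2.17 with them. On plate B the median log2 ratio of the 13 endothelial markers that passed the filter was -4.87, against 0.48 over all genes there. Every basal cell with at least 4 endothelial markers lay on plate B and every such luminal cell on plate C. The plate B median of the list thus cannot be told apart from where those cells lay. Among fibroblast markers Dcn, which encodes decorin, had 585 and 932 CPM, Col3a1 123 and 251 CPM, Dpt 6.22 and 207 CPM and Lum 34.2 and 132 CPM. Of the basal Lum reads nearly all came from a single cell. Without the cells that stand apart the log2 ratio was -0.19 for Dcn, -0.07 for Col3a1, 0.18 for Dpt and 0.08 for Lum, against 0.67, 1.03, 4.85 and 1.91 with them. At 50000 reads Dcn was found in 48.6% of basal and 38.2% of luminal cells.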
